A study of Mus musculus with 6 samples.

Results

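The mRNAs of the EGF receptor family, of some of its ligands and of a pair of its inhibitors were followed in fetal hypothalamic NSC/NPCs. The 10 genes were taken by name from a table of 22048 genes, and all of them were found there: the receptors Egfr, Erbb2, Erbb3 and Erbb4, the ligands Hbegf, Areg, Tgfa and Nrg1, and the inhibitors Errfi1 and Lrig1. RNA was sequenced from first-passage neurospheres, floating clusters of cells, of E14.5 male C57BL/6 fetuses in 3 NC samples and 3 HE samples, each with cells of 2 mice. HE dams, pregnant at 8 weeks of age, had received estradiol valerate, an ester of estradiol, by gavage at 100 μg/kg/d from E5.5 to E11.5. NC dams had received the corn oil solvent, although the treatment label of the NC samples reads untreated. All samples had grown with 10 ng/mL EGF and 10 ng/mL bFGF in the medium, so the receptors of both groups had been exposed to added ligand. Estradiol was given to the dams and not to the cultures.

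The EGF receptor family consists of receptor tyrosine kinases at the cell surface, which pair with each other when a ligand binds and then drive the RAS-ERK and PI3K-AKT pathways. Egfr binds EGF, Tgfa, Areg and Hbegf, Erbb3 and Erbb4 bind neuregulins such as Nrg1, Erbb2 has no known ligand of its own and serves as the partner of the others, and Erbb3 has little kinase activity and signals mainly through its partner. Neural stem cells are commonly expanded with EGF, and in the hypothalamus Tgfa and neuregulin signaling in astroglia is known for its part in the onset of puberty.

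Each sample had 16078675 to 19137059 reads on genes. Levels are given as RPKM, reads scaled to gene length and to the sample's total, where a single read on a gene of 1 kilobase was worth 0.0523 to 0.0622. The neural stem cell markers Sox2, Nes and Vim were abundant in all samples, at 195 to 209, 158 to 204 and 1729 to 1803 RPKM in NC and 97.3 to 176, 154 to 247 and 1234 to 1764 RPKM in HE. Of the 12 markers of the neural stem/progenitor list 11 had a log2 fold change below 0 (list median -0.33, HE over NC). Of the 12, 1 (Prom1), or 8.33%, had an unadjusted p-value under 0.05 in limma, against 20.5% of all tested genes. The groups did not overlap for Sox2, Msi1, Prom1 and Sox1, or 33.3%, against 32.7% of all tested genes. Of 12 hypothalamus markers only 6 passed the filter on low reads, and Rax, Sim1 and Otp had at most 8 reads in any sample. Among the tested 6, the smallest adjusted p by limma was 0.195. Nkx2-2, Nkx2-4, Foxb1 and Six6 were higher in HE at an unadjusted p-value under 0.05, where 8.68% of all tested genes were, Six6 with 1 to 13 reads per sample, while Nkx2-1 and Six3 had log2 fold changes of -0.67 and -0.59. HE3 stood apart from the other samples. When each sample was given a weight by limma, HE3 received 0.158 and the others 0.852 to 2.87, and the oligodendrocyte lineage factor Sox10 was at 1.65 RPKM in HE3 against 13.04 to 16.5 RPKM elsewhere. Markers of other cells were also present. The 10 astrocyte markers, with Sox9 and Slc1a3 also on the neural stem/progenitor list, summed to 1590 to 1978 RPKM in NC and 1152 to 1640 RPKM in HE. Gfap was at 624 to 754 RPKM in NC and 650, 387 and 195 RPKM in HE. Aldh1l1 was at 553 to 698 RPKM in NC and 482 to 530 RPKM in HE. Of the 10 astrocyte markers, 6 had a log2 fold change below 0 and 4 above 0, among the latter S100b. The 10 mesenchymal markers summed to 33.8 to 96.0 RPKM in NC and 81.4 to 174 RPKM in HE, the 9 microglial markers to 1.088 to 1.5004 and 2.74 to 8.47 RPKM, and the 9 endothelial markers to 2.91 to 3.74 and 4.48 to 5.56 RPKM. The astrocyte and mesenchymal sums overlap between the groups, and the microglial and endothelial sums do not. Of the microglial list, C1qa, C1qb, C1qc and Tmem119 were higher in every HE sample, whereas P2ry12 had 13 to 16 reads in NC and 6 to 21 in HE, Csf1r 14 to 18 and 12 to 23, and Aif1 1 to 7 and 2 to 6. Of the endothelial list, Cdh5 was at 0.341 to 0.755 RPKM in NC and 1.66 to 2.75 RPKM in HE, while Flt1 had a log2 fold change of -0.20 and Tie1 at most 8 reads in any sample. The part of these markers in the results below was not tested, and in bulk RNA fewer cells of a type and less RNA per cell cannot be told apart.

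Within the receptors, Egfr mRNA was higher on average in HE, while Erbb2 and Erbb3 were lower in every HE sample than in every NC sample and Erbb4 showed no clear difference. Differences, given as the log2 fold change (log2FC) of HE over NC, were tested with limma on log2(RPKM + 0.1) over all 13952 genes that passed the filter, with Benjamini-Hochberg adjustment, and 9 of the 10 members passed it. None of the 9 reached an adjusted p-value of 0.05, and neither did any other gene, with 0.0% of the tested genes called and a smallest adjusted p-value of 0.148. The voom fits on the read counts called 0 genes as well. The study itself tested these samples with DESeq2, which was not run here. It did report differentially expressed mRNAs, at an FDR under 0.05 and with a cutoff on the fold change. Of the 9, 3 members (33.3%) had an unadjusted p-value under 0.05, Egfr higher and Erbb2 and Erbb3 lower in HE, whereas 20.5% of all tested genes did, 8.68% higher and 11.8% lower. In 2 of the 9, or 22.2%, the groups did not overlap, both lower in HE, against 32.7% of all tested genes, 17.9% lower. Read against this background, the members as a group did not stand out, and the values below describe single genes.

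**Figure D1:**
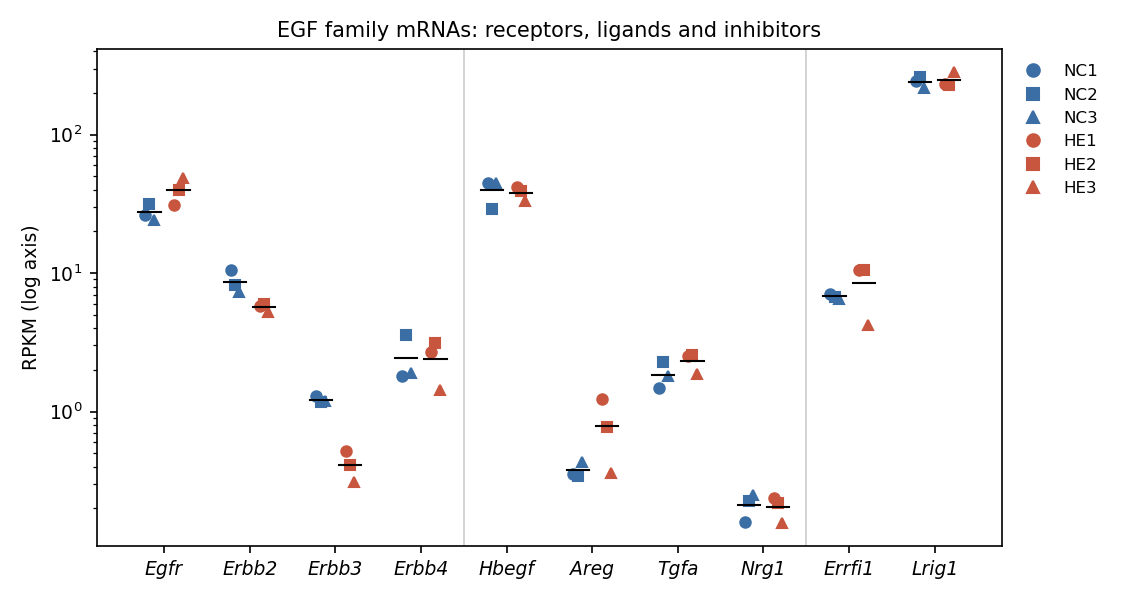
RPKM (log axis) of the 10 members in each of the 6 samples, with a line at each group mean. Lrig1 lay at 219 RPKM or more in all samples, Erbb2 and Erbb3 were lower in each HE sample than in each NC sample, and Errfi1 and Areg were spread widely in HE.

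Egfr, the receptor for the EGF of the medium, spans 16752203 to 16913907 on chromosome 11 (GRCm38.p6, the same build as the mm10 named in the labels). Its level was 26.4, 31.7 and 24.3 RPKM in NC1, NC2 and NC3 and 31.0, 39.9 and 48.4 RPKM in HE1, HE2 and HE3. HE2 and HE3 were above all NC samples, whereas HE1 lay just below NC2, so that the groups overlap. Group means were 27.5 ± 3.83 and 39.8 ± 8.70 RPKM (SD, n = 3 each). The log2FC was 0.52 ± 0.18 (SE, with an adjusted p of 0.21 by limma), and it was 0.36 without HE3 and 0.68 without HE1. With 5216 to 8820 reads per sample, counting error was small beside the spread between samples. The study itself measured the mRNA of EGF and bFGF receptors in primary NSC/NPCs by quantitative PCR. It reported no significant difference between HE and NC.

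Erbb2, the partner receptor, lies on the same chromosome from 98412484 to 98437716. It was at 10.5, 8.19 and 7.29 RPKM in NC and 5.83, 5.97 and 5.23 RPKM in HE. The 3 HE values were close together and all below the lowest NC value. The mean went from 8.66 ± 1.66 to 5.68 ± 0.393 RPKM (SD, n = 3 each), or a log2FC of -0.59 ± 0.16 (SE, with an adjusted p of 0.195 by limma). The exact two-sided permutation test gave p = 0.1, the smallest p that 3 samples against 3 allow. The interval of Mien1 overlaps that of Erbb2, and since the use of strand in counting is not stated, reads could be shared. Mien1 itself was at 11.9 to 13.6 RPKM in NC and 12.8 to 14.1 RPKM in HE.

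Erbb3, the neuregulin receptor with little kinase activity of its own, had the widest difference among the tested members. It spans 128567523 to 128589635 on chromosome 10. The levels were 1.29, 1.17 and 1.19 RPKM in NC and 0.520, 0.410 and 0.310 RPKM in HE, from 146, 135 and 136 reads and 56, 47 and 30 reads. NC samples were nearly equal, and the HE samples lay far below them. The 95% Poisson interval, which covers counting error only, reached from 0.393 to 0.675 RPKM in HE1, the highest HE sample, and from 0.983 to 1.39 RPKM in NC2, the lowest NC sample. The log2FC was -1.38 ± 0.22 (SE, with an adjusted p of 0.195 by limma and an unadjusted p of 0.000338), or 0.384 of the NC level. A pseudocount of 1, which weighs on a gene at this level, brought it to -0.65, and voom on the read counts gave -1.57. With each sample left out in turn it stayed between -1.53 and -1.23.

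Erbb3 is known for its place in oligodendrocyte precursors and in Schwann cells, so the markers of these cells were set beside it. Sox10 was at 13.04, 14.8 and 15.4 RPKM in NC and 16.5, 13.1 and 1.65 RPKM in HE. Its HE1 and HE2 values lay close to those of NC and that of HE3 far below. Pdgfra, the PDGF receptor of oligodendrocyte precursors, was at 8.59 to 13.8 RPKM in NC and 15.0, 8.75 and 6.29 RPKM in HE, and Gpr17 at 18.9 to 23.6 RPKM in NC and 32.7, 26.6 and 1.53 RPKM in HE. Of later genes of the lineage, Mbp was at 11.8 to 22.2 RPKM in NC and 14.8, 11.49 and 1.79 RPKM in HE, and Mog had 8 to 11 reads in NC and 5, 3 and 2 reads in HE. Of the 9 tested genes of the lineage list 0 had an unadjusted p-value under 0.05 in limma, against 20.5% of all tested genes. The 10 listed genes summed to 310 to 345 RPKM in NC and 348 to 516 RPKM in HE, mostly Olig1 and Olig2. The 8 Schwann and neural crest markers summed to 31.9 to 36.1 RPKM in NC and 24.3 to 31.8 RPKM in HE, nearly all of it Pmp22. In the same list Ngfr had 13, 4 and 18 reads in NC and 35, 50 and 51 reads in HE, a log2FC of 1.67 with an adjusted p of 0.195 by limma, Cdh19 was at 2.94 to 3.76 and 1.53 to 3.59 RPKM, and Foxd3 had at most 2 reads in any sample. The part of these cells in the level of Erbb3 was not tested.

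**Figure D2:**
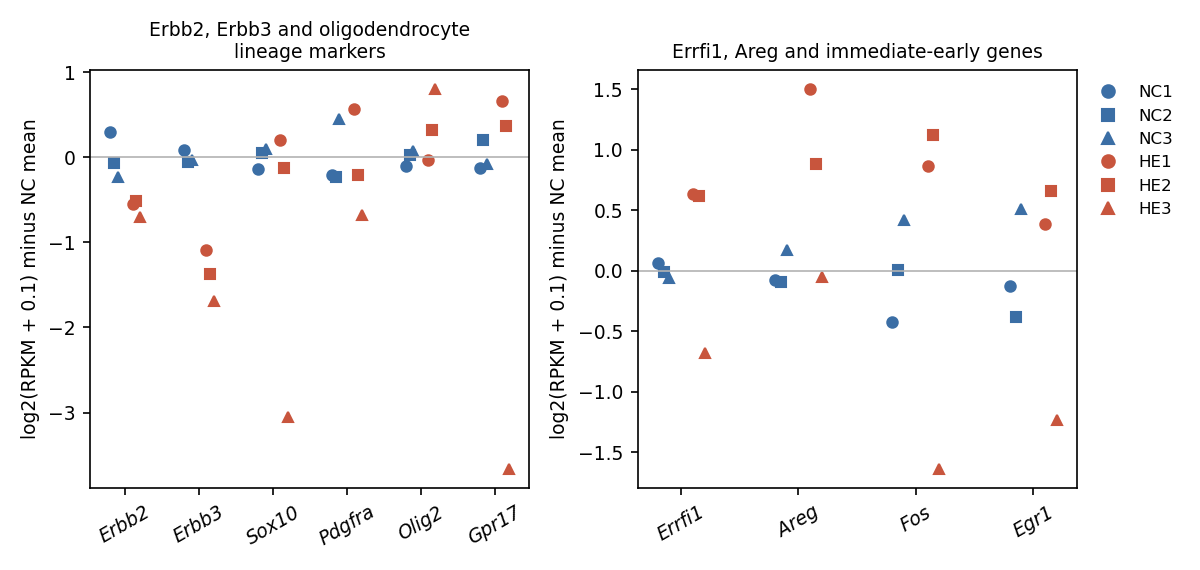
log2(RPKM + 0.1) of each sample minus the NC mean, for Erbb2, Erbb3 and oligodendrocyte lineage markers (left) and for Errfi1, Areg, Fos and Egr1 (right). Sox10 and Gpr17 were low in HE3 alone, Erbb3 was low in all HE samples, and in the right panel HE1 and HE2 lay above the NC mean while HE3 lay lowest for Errfi1, Fos and Egr1.

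Erbb4, a neuregulin receptor that is active as a kinase and is used by migrating interneuron precursors, gave 1.82, 3.57 and 1.91 RPKM in NC and 2.67, 3.12 and 1.42 RPKM in HE. NC2 was the highest sample and HE3 the lowest, and the groups overlap over most of their range. The log2FC was -0.02 ± 0.36 (SE, with an adjusted p of 0.974 by limma), and its sign changed with the scaling and with the samples used. Markers of GABAergic precursors did not follow the same order. Their 8 genes summed to 19.8, 6.02 and 11.001 RPKM in NC, lowest in NC2, and to 6.60, 5.01 and 3.28 RPKM in HE. By the mean absolute difference of centred log2 levels over the 6 samples, the genes most like Erbb4 among 11523 with a mean of at least 1 RPKM were Tmcc3, Il18 and Nr2f1, at 0.086, 0.0967 and 0.109. The genes most like Egfr were Lasp1, Unc79 and Cmss1, at 0.0564, 0.0589 and 0.0633. Nearest genes can be named for any profile over 6 samples, and how near they lie for other genes was not tested.

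Since RPKM is per length, the receptors can be set side by side within a sample, where their shares do not depend on the scaling between samples. Egfr made up 66.0%, 71.0% and 70.1% of the summed receptor RPKM in NC and 77.5%, 80.8% and 87.4% in HE. Here the groups did not overlap, unlike for the level of Egfr itself. The mean share went from 69.0% ± 2.69 to 81.9% ± 5.08 (SD, n = 3 each), with p = 0.1 in the exact two-sided permutation test, the smallest possible. Erbb2 took 26.3%, 18.3% and 21.0% in NC and 14.6%, 12.1% and 9.44% in HE, and Erbb3 took 2.62% to 3.44% in NC and 0.560% to 1.30% in HE, both with p = 0.1 in the same exact test. Erbb4 held 4.55% to 8.00% in NC and 2.56% to 6.67% in HE (exact permutation p = 0.7). The shares of 1 sample add up to the whole, so these are not 4 independent results. The summed receptor RPKM was 39.8 ± 4.99 in NC and 48.3 ± 7.72 in HE (SD, n = 3 each), with overlapping groups and p = 0.2 in the exact permutation test. As a ratio, chosen after the values had been seen, Egfr over Erbb2 was 2.51, 3.87 and 3.33 in NC and 5.32, 6.68 and 9.26 in HE.

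**Figure D3:**
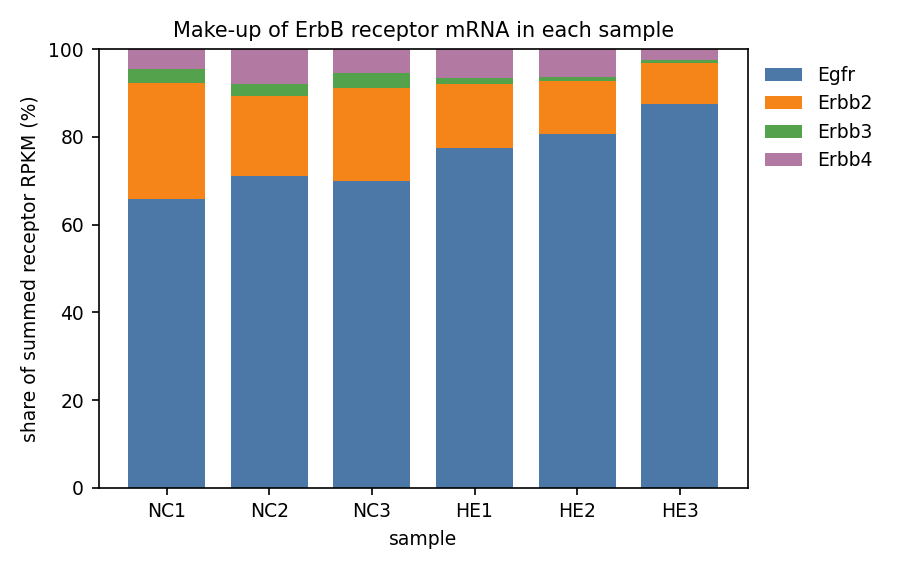
Share of each receptor (%) in the summed RPKM of Egfr, Erbb2, Erbb3 and Erbb4, 1 bar per sample. The share of Egfr was 66.0% to 71.0% in the NC samples and 77.5% to 87.4% in the HE samples.

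The promoters of Egfr and Erbb2 are shown because their shares among the receptors lay higher in HE for Egfr and lower for Erbb2, although neither level passed adjustment. Each sequence is the 250 bases before the RefSeq start (GRCm38.p6, plus strand), at chr11:16751953-16752202 for Egfr and at chr11:98412234-98412483 for Erbb2, and capitals mark the matches of 6 motifs searched on both strands: the GC box GGGCGG, the CCAAT box CCAAT, the TATA box TATAAA, the AP-1 motif TGANTCA, the cAMP response element TGACGTCA and the full palindromic estrogen response element.
Egfr: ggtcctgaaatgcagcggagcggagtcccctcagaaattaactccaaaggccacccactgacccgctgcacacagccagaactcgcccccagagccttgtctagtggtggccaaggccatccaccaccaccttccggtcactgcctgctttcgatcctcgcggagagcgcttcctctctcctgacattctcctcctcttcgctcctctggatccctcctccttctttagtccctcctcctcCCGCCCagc
Erbb2: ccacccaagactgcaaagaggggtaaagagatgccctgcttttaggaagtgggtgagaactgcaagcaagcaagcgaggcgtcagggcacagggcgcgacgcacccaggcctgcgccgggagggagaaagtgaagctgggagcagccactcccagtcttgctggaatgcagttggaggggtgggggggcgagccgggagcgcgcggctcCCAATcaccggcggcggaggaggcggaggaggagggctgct
Both windows are rich in G and C, at 60.8% and 66.0%, where the median over 32851 promoter windows was 52.4%. Egfr held 1 GC box 9 bases before the start, a motif found in 32.7% of all windows, and Erbb2 held 1 CCAAT box 41 bases before it, found in 33.8%. Windows were at hand for 7 of the 10 members, and no estrogen response element was found in their 8 windows. This motif occurs in 21 of all windows, or 0.0639%. A match is no proof of a site, and the lack of a match says only that these letters are not in the window.

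Hbegf, heparin-binding EGF-like growth factor, was by far the most abundant of the member ligands. It was at 44.5, 29.3 and 45.1 RPKM in NC and 42.2, 39.1 and 33.1 RPKM in HE, which gives a log2FC of -0.04 ± 0.19 (SE, with an adjusted p of 0.922 by limma). The HE values all lay within the range of NC. Hbegf made up 91.1% to 95.7% of the summed ligand RPKM in NC and 91.3% to 93.3% in HE. Tgfa, a ligand of Egfr, was at 1.47, 2.27 and 1.81 RPKM in NC and 2.53, 2.58 and 1.86 RPKM in HE. HE1 and HE2 exceeded all NC samples but HE3 did not, and the log2FC was 0.32 ± 0.22 (SE, with an adjusted p of 0.405 by limma), or 0.17 without NC1. Nrg1, the neuregulin that Erbb3 and Erbb4 bind, was near the lower limit of the tested genes with 26 to 49 reads per sample. Its level was 0.160 to 0.250 RPKM in NC and 0.156 to 0.237 RPKM in HE, with a log2FC of -0.04 ± 0.24 (SE). Nrg1 makes many isoforms, which gene counts do not separate. The summed ligand RPKM was 42.1 ± 8.64 in NC and 41.4 ± 5.43 in HE (SD, n = 3 each, exact permutation p = 0.8), and the share of no ligand differed between the groups beyond its spread (exact permutation p = 0.2 to 0.7).

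Areg, amphiregulin, a ligand of Egfr that is often induced by growth factors, did not pass the filter. It had 8, 8 and 10 reads in NC and 27, 18 and 7 reads in HE, or 0.351, 0.344 and 0.434 RPKM against 1.24, 0.777 and 0.358 RPKM. HE1 and HE2 were above NC and HE3 was level with NC. The 95% Poisson interval of HE1 was 0.818 to 1.81 RPKM and that of NC3, the highest NC sample, 0.208 to 0.799 RPKM. That of HE2, 0.460 to 1.23 RPKM, overlaps the interval of NC3. In the fit without a filter the log2FC was 0.78 ± 0.40 (SE, with an adjusted p of 0.366 by limma).

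The other ligands, from a list written by hand, were low except for Nrg2. This neuregulin had 176 to 190 reads in NC and 133 to 178 reads in HE, or 2.99 to 3.26 and 2.41 to 3.29 RPKM, so that it was the most abundant neuregulin mRNA. Ereg, epiregulin, had 12, 5 and 5 reads in NC and 29, 17 and 13 reads in HE, without overlap of the groups, and a log2FC of 0.92 ± 0.31 (SE, with an adjusted p of 0.203 by limma). Egf had 66 to 79 reads in NC and 27 to 59 reads in HE, again without overlap, with a log2FC of -0.48 ± 0.24 (SE), or -0.29 without HE3. Btc had 7 to 26 and 12 to 25 reads, and Nrg4 had 21 to 30 and 20 to 26 reads. Epgn and Nrg3 were not tested, with at most 2 and 6 reads in any sample. Of the 5 tested ligands, 1 (Ereg), or 20%, had an unadjusted p-value under 0.05 in limma, against 20.5% of all tested genes.

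Lrig1, a membrane protein that promotes the breakdown of EGF receptors and marks quiescent stem cells in several tissues, was the most abundant member. It was at 243, 260 and 219 RPKM in NC and 233, 227 and 285 RPKM in HE, from 23216 to 27742 reads per sample. Among the 13952 tested genes it ranked 213 by its mean RPKM over the 6 samples, while Hbegf ranked 1404 and Egfr 1660. The groups overlap, and the log2FC was 0.04 ± 0.14 (SE, with an adjusted p of 0.872 by limma). The interval of Slc25a26, at 1.17 to 2.12 RPKM in all samples, overlaps that of Lrig1. Set against Egfr in the same sample, a ratio chosen after the values had been seen, Lrig1 was 9.20, 8.18 and 9.03 times as high in NC and 7.51, 5.70 and 5.88 times as high in HE. This ratio did not overlap between the groups (exact two-sided permutation p = 0.1). Its paralog Lrig3, from the list of receptor turnover genes, was at 4.84 to 5.82 RPKM in NC and 6.05 to 7.26 RPKM in HE.

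Errfi1, also known as Mig6, is a cytoplasmic protein that is induced by EGF receptor signaling and blocks the receptor's kinase. Its levels were 7.13, 6.75 and 6.53 RPKM in NC and 10.6, 10.5 and 4.202 RPKM in HE. The NC samples were nearly equal, HE1 and HE2 were above them and HE3 was below them. The log2FC of 0.19 ± 0.34 (SE, with an adjusted p of 0.751 by limma) is an average over this split, and it was 0.63 without HE3. Fos, an immediate-early transcription factor gene, was likewise above all NC samples in HE1 and HE2 and below them in HE3, with 94.8, 127 and 169 RPKM in NC and 231, 276 and 40.7 RPKM in HE. Egr1, another gene of this kind, was at 15.6 to 29.2 RPKM in NC and at 26.8, 32.3 and 8.64 RPKM in HE, so that HE1 fell within the range of NC. What set HE3 apart was not tested.

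The promoters of Areg and Errfi1 are shown because both mRNAs were higher in HE1 and HE2 than in every NC sample. They are the 250 bases before a RefSeq start on the plus strand of GRCm38.p6, at chr5:91139349-91139598 for Areg and at chr4:150854820-150855069 for Errfi1, where the latter lies within the gene's span and precedes the downstream member of a pair of annotated starts. Capitals mark the same motifs as above.
Areg: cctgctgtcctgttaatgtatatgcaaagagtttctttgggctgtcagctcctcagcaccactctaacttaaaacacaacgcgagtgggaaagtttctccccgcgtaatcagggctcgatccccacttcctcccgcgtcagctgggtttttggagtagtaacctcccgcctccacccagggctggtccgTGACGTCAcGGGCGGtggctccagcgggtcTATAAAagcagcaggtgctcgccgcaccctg
Errfi1: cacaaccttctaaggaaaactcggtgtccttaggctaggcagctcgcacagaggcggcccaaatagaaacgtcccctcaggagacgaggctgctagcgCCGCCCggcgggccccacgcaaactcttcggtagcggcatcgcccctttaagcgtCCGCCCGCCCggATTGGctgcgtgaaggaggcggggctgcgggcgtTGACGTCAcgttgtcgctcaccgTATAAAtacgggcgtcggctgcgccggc
Each window held a TATA box, 31 bases before the start in Areg and 28 in Errfi1, and a cAMP response element, 61 and 51 bases before it. Of all windows, 12.4% held the TATA box and 1.55% the cAMP response element. Areg also held 1 GC box, and Errfi1 held 3, of which 2 overlap, and a CCAAT box. The window of the upstream start of Errfi1 held none of the motifs, nor did that of Erbb4, and the windows of Lrig1 and Tgfa held 2 GC boxes each, that of Lrig1 also a CCAAT box. Tgfa mRNA, too, was higher in HE1 and HE2 than in every NC sample. Its window, which is not shown, held no TATA box and no cAMP response element. The windows of Tgfa and Lrig1 lay partly within the spans of their genes and that of Erbb4 wholly. These windows thus precede starts inside the span, and sequence before the outermost start was not searched for these genes.

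**Figure D4:**
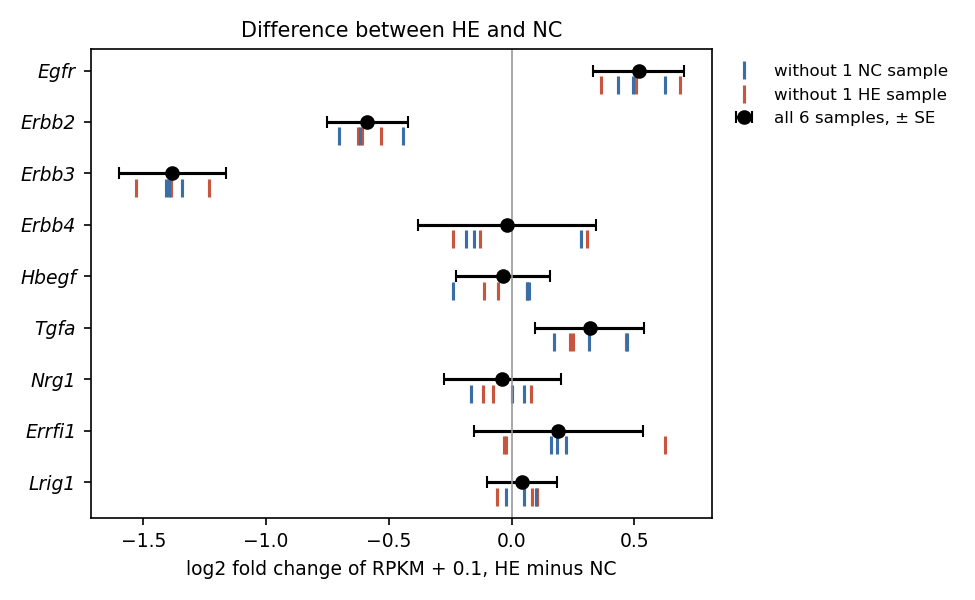
log2 fold change of RPKM + 0.1 (HE minus NC) for the 9 tested members, with the standard error (bars) over all 6 samples, and the value with each sample left out in turn (ticks). Erbb2 stayed between -0.70 and -0.44 and Erbb3 between -1.53 and -1.23, whereas Errfi1 ran from -0.03 to 0.63.

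The order of the members by mean RPKM over the 6 samples was Lrig1, Hbegf, Egfr, Errfi1, Erbb2, Erbb4, Tgfa, Erbb3, Areg and Nrg1, with means from 245 down to 0.208. Neighbours in this order did not always differ beyond their spread. Hbegf was above Egfr in 3 of 6 samples, Errfi1 above Erbb2 in 2 of 6, Erbb4 above Tgfa in 5 of 6 and Erbb3 above Areg in 3 of 6. The other 5 steps, among them that from Lrig1 to Hbegf and that from Egfr to Errfi1, held in all 6 samples with no overlap.

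Around the members, the genes that release ligands, carry the signal, remove the receptors and respond to ERK were taken from 7 lists of 108 genes, of which 105 were tested. No gene of these lists had an adjusted p-value under 0.05 in limma. An unadjusted p-value under 0.05 was found for 14, or 13.3%, against 20.5% of all tested genes, with 6 higher and 8 lower in HE. List by list, this share ran from 0% to 20%. The groups did not overlap for 28 genes, 26.7% against 32.7%, of which 11 were higher and 17 lower. The median log2 fold change over the 105 genes was -0.06, as over all tested genes (-0.06).

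Among 11 genes of ligand release 2, or 18.2%, had an unadjusted p-value under 0.05 in limma, against 20.5% of all tested genes. Rhbdf2, which carries the sheddase Adam17 to the cell surface, was at 7.88, 6.82 and 3.88 RPKM in NC and 2.92, 2.18 and 0.729 RPKM in HE. All HE samples lay below NC, with a log2FC of -1.76 ± 0.50 (SE, with an adjusted p of 0.195 by limma) and of -1.20 without HE3. Adam17 itself, the main sheddase for Tgfa, Areg and Hbegf, was at 17.2 to 18.0 RPKM in NC and 17.8 to 19.8 RPKM in HE. Adam12, a metalloproteinase that can shed Hbegf, was at 4.30 to 6.34 RPKM in NC and 7.81, 10.1 and 14.9 RPKM in HE, a log2FC of 0.95 ± 0.26 (SE). Bace1, a protease that cuts Nrg1, differed little, with 12.3 to 12.9 RPKM in NC and 11.3 to 11.8 RPKM in HE.

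Of 20 tested receptor adaptors 3, or 15%, had an unadjusted p-value under 0.05 in limma, against 20.5% of all tested genes. All 3 were lower in HE, as were 11.8% of all tested genes at this cutoff. The median log2 fold change of the list was -0.16. Shc1, which links active receptors to Grb2, was at 18.0, 16.2 and 15.0 RPKM in NC and 12.3, 12.019 and 10.4 RPKM in HE, with a log2FC of -0.50 ± 0.12 (SE). Stat5a, a transcription factor that receptors can activate, was at 1.702 to 2.07 RPKM in NC and 0.889 to 1.58 RPKM in HE. Eps8, a substrate of Egfr, was at 2.54 to 3.37 RPKM in NC and 3.74 to 3.99 RPKM in HE. In the RAS-ERK core, 2 of 16 genes, or 12.5%, had an unadjusted p-value under 0.05, against the same 20.5%. The scaffold Ksr1 was at 7.64 to 9.10 RPKM in NC and 6.52, 5.49 and 2.89 RPKM in HE (log2FC -0.83, and -0.49 without HE3), and the ERK-activated kinase Rps6ka1 at 22.2 to 27.7 and 18.4 to 20.2 RPKM. Nras, a RAS protein, lay slightly above NC in every HE sample, with a log2FC of 0.17, or 0.11 without HE3.

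Receptor turnover genes gave 2 of 19 at an unadjusted p-value under 0.05, Lrig3 (log2 fold change 0.37) and the phosphatase Ptpn2 (-0.47), and Eps15l1, an endocytic adaptor, had a log2 fold change of -0.21 without overlap of the groups, and of -0.09 without HE3. The PI3K-AKT core had 0 of 14 at this cutoff, against the same 20.5%. The kinases Mtor and Gsk3b, whose groups did not overlap, had log2 fold changes of 0.12 and -0.35, that of Gsk3b being -0.17 without HE3.

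The 20 genes of ERK feedback and targets had a median log2FC of 0.12, with 14 higher and 6 lower in HE. An unadjusted p-value under 0.05 in limma was found for 4, or 20%, against 20.5% of all tested genes. The groups did not overlap for 6, or 30%, against 32.7% of all tested genes. Dusp6, the phosphatase that is induced by ERK and inactivates it, was at 50.7, 41.2 and 56.5 RPKM in NC and 73.0, 93.6 and 162 RPKM in HE. Each HE sample was above all NC samples, with a log2FC of 1.08 ± 0.29 (SE, with an adjusted p of 0.195 by limma) and of 0.75 without HE3. Etv4, an ETS factor that follows ERK activity, was at 13.3 to 15.3 RPKM in NC and 17.9, 23.6 and 27.3 RPKM in HE, a log2FC of 0.70 ± 0.17 (SE). Ier3, an early response gene, was lower, at 136 to 188 RPKM in NC and 92.2 to 112 RPKM in HE, and Spred2, a RAS-ERK inhibitor, was at 4.15 to 4.70 and 2.96 to 3.81 RPKM. The bFGF of the medium and FGF receptors also drive these genes, so they are not particular to EGF receptors.

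**Figure D5:**
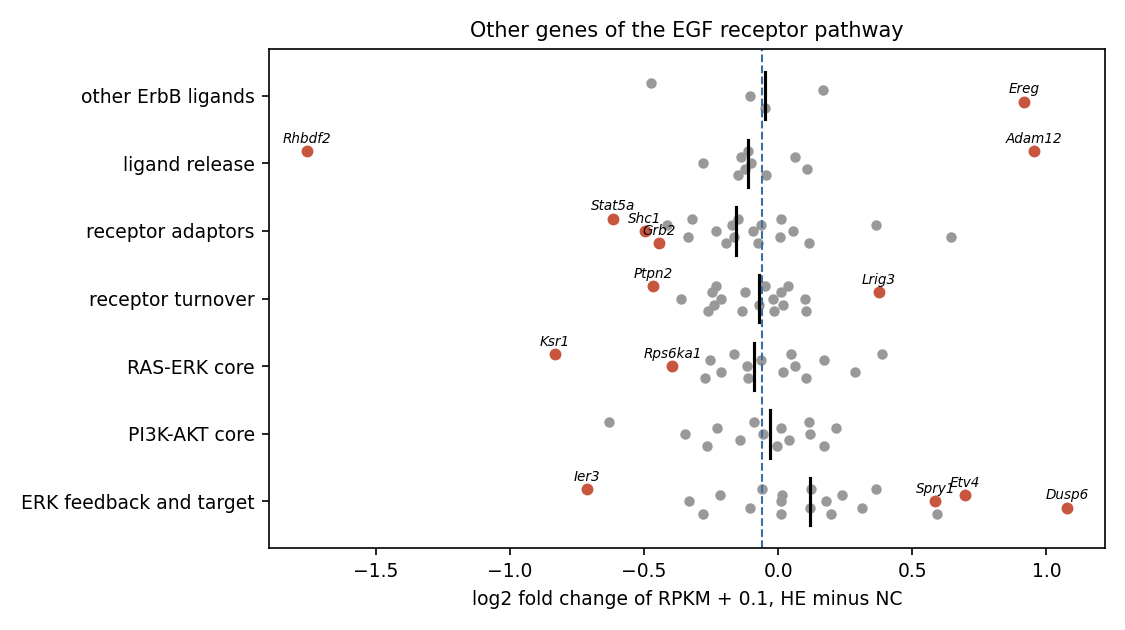
log2 fold change of RPKM + 0.1 (HE minus NC) of each tested gene in 7 lists of the pathway, with the list median (black) and the median of all 13952 tested genes (dashed). Genes with an unadjusted p-value under 0.05 are red and named, from Rhbdf2 at -1.76 to Dusp6 at 1.08.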

How the data were processed

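The 3 HE and 3 NC samples were profiled by RNA-Seq. Before deposit, the authors discarded reads of poor quality or with adaptor and used TopHat2 for alignment to mm10, and the submitters' processing notes also name CASAVA 1.7. How reads were counted, on which annotation and whether by strand is not given in the sources used here. The table that the authors deposited holds raw read counts per gene beside RPKM. The RPKM equal count over gene length and sample total to within 4.99e-07. Large counts are written with commas, and all are whole numbers once these are removed. They served for depth, the filter and voom. The design set limma on RPKM as the test, and a negative binomial count test, which the study used, was not run.

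RPKM + 0.1 was tested on the log2 scale with limma-trend (limma 3.58.1, R 4.3.3), a scale that understates the change of low genes. Genes entered the test if 3 or more samples were above what 10 reads make in the median library and if all samples together had 15 or more reads, leaving 13952 of 22048. Symbols were matched for 21781 identifiers. Coordinates and promoters are RefSeq's on GRCm38.p6. For single values, all 20 assignments of the samples were enumerated in a two-sided permutation test (scipy 1.17.1). The limma fit was also run on simulated counts with known differences, and its outcome there is not reported here.

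The members and lists were chosen with earlier results of these data known. Named genes were the members, the ligands and, per list, up to 2 genes with the largest difference in each direction among those of at least 1 RPKM whose groups do not overlap. Some genes that this rule names are not reported here. Adam17, Fos, Egr1, the overlapping genes and the markers were named after their values had been seen. Each sample pooled cells of 2 mice, and whether samples of a group came from separate litters is not stated, so p-values measure the spread between these samples. The alternatives were another pseudocount, other filters, median-of-ratios scaling, voom, sample weights, robust empirical Bayes, a replicate block and each sample left out.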

Additional observations from a re-analysis of the deposited data

How the results depend on the processing

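No alternative brought Egfr, Erbb2 or Erbb3 to the other side of 0, and an adjusted p-value under 0.05 in limma was reached with estimated sample weights alone, by Erbb3 among the members (-1.34, adjusted p = 0.0199, against 0.099 to 0.502 in the other alternatives). Of the other named genes, Adam12, Rhbdf2, Shc1, Lrig3, Dusp6, Etv4 and Ier3 also passed with sample weights alone (adjusted p from 0.0331 to 0.0405). In that fit, 268 genes passed both cutoffs in place of 0, with 1 member among them, and 22 genes of the pathway lists had an unadjusted p-value under 0.05 in place of 14. With each sample left out in turn these counts were 0 to 103 (103 without NC3), 0 and 8 to 18 (8 without NC1, 9 without NC2), and the count over all genes was 1342 without NC1 and 1638 without NC2 in place of 2858. Members near 0 changed sign. Erbb4 was at 0.44 with sample weights, 0.038 with median-of-ratios scaling and 0.059 with voom on that scaling, Hbegf at 0.026 with both of the latter, Nrg1 at 0.11, 0.00018 and 0.021, and Lrig1 at -0.051 with sample weights. With a sample left out, the log2 fold change ran from -0.24 to 0.31 for Erbb4, -0.24 to 0.072 for Hbegf, -0.17 to 0.080 for Nrg1, -0.032 to 0.63 for Errfi1, -0.060 to 0.10 for Lrig1, -0.14 to 0.43 for Btc, -0.20 to 0.018 for Nrg2 and -0.14 to 0.029 for Nrg4. The difference in the share of Erbb4 among receptors ran from -1.57 to 0.48 percentage points and that of Nrg1 among ligands from -0.13 to 0.054. The cause was not tested. Shares of read counts in place of RPKM kept the direction of all 8 shares.

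The replicate number as a block called 0 genes and gave 3184 at an unadjusted p-value under 0.05 in place of 2858, with 3 members among them and 16 genes of the pathway lists, and changed no other call. Samples of the same number share only that number. Their deviations from the group means correlated at 0.156, 0.0869 and 0.0603 over genes, and each sample correlated best with its own number, which is a hint from the data and not from the design. Depth limits Areg, Ereg, Btc, Epgn and Nrg3, where a few reads give wide counting intervals.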
